A study of Vitis vinifera with 27 samples.

Results

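Buds at node 10, the uppermost position that was sampled on the shoots of grapevine (Vitis vinifera L.) cv. Merlot, were followed over 3 phenological stages. They were collected at BBCH63 (anthesis), BBCH77 (cluster closure) and BBCH90 (harvest) of one growing season. Of the 27 RNA-Seq libraries of the study, which also hold buds of nodes 2 and 5, the 6 node 10 libraries that the authors kept were chosen by their labels, with replicates 1 and 2 of each stage. Every vine was grafted on the same rootstock, no treatment was compared, and each replicate was a pool of buds of one node. The p values therefore measure the spread between pools, and with 2 pools per stage this spread was estimated over the 24 libraries that were kept at all nodes. In whole buds, fewer cells of a type and less RNA per cell cannot be told apart.

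A latent bud of grapevine holds preformed shoots, and the inflorescences of the next season start to form inside it during the current one. Genes of the floral pathway act in this process first in the perception of day length and season and then in the meristem, where the LEAFY homologue VvVFL specifies flowers and members of the TFL1 family keep the meristem indeterminate. Later in the season the bud stops growing, its scales mature and it enters dormancy.

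The 6 libraries held between 35341972 and 46820046 counts. Both genes fixed as markers of the bud meristem were measured in each library, VvVFL at 4.41 to 8.04 CPM (counts scaled to a common library size) and VvTFL1A at 0.0607 to 6.34 CPM. The distance between 2 libraries, as the root mean square of their log2 CPM differences over 22999 genes, was 0.349 between the node 10 replicates at BBCH63, 0.496 at BBCH77 and 0.38 at BBCH90. At BBCH77 the replicates thus lay as far from each other as from node 5 replicates 1 and 2, for which the mean distance was 0.471. Replicate 1 was nearest to the library labelled BBCH77 node 2 replicate 3 (0.415) and replicate 2 to BBCH77 node 5 replicate 2 (0.398). The third replicates, which the authors left out, stood at mean distances of 0.902, 1.49 and 1.62 from the kept node 10 libraries of their stage, and that of BBCH90 equalled BBCH63 node 2 replicate 2 at all 35134 genes.

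The order of the columns allows a second reading of the labels. If each column from BBCH63 node 5 replicate 1 onwards takes the label of the column after it, node 10 gains the columns labelled node 5 replicate 3 and has 3 columns at each stage. The columns labelled BBCH63 and BBCH77 node 10 replicate 3, which the authors left out, then count as node 2 replicate 1 of the next stage. BBCH77 node 2 replicate 3 then counts as BBCH77 node 5 replicate 1. The 3 columns labelled node 5 replicate 3 lay at mean distances of 0.454, 0.446 and 0.502 from the node 10 libraries of their stage. From the other node 5 libraries they lay at 0.471, 0.442 and 0.59. The distances to both nodes differed by 0.0175, -0.0035 and 0.088, against a spread of 0.0156, 0.00984 and 0.0823 among them, so that only the BBCH63 and BBCH90 columns were nearer to node 10, by little more than the spread. These distances do not settle which labels are right. The study lists its highest BBCH77 read numbers for node 5 replicate 3 and node 10 replicate 1. The highest BBCH77 totals, 52887975 and 53307172 counts, stood in the columns labelled node 5 replicates 2 and 3, which take those labels when renamed. At BBCH63 the lowest read number is listed for node 5 replicate 3, and the lowest total, 36504528 counts, stood in node 5 replicate 2. That column also takes the listed label when renamed. The left-out column labelled BBCH63 node 10 replicate 3 had 25493 genes with a count. Kept BBCH63 libraries had 24968 to 25261 and kept BBCH77 libraries 25382 to 25822. The left-out column labelled BBCH77 node 10 replicate 3 had 24149, and kept BBCH90 libraries had 23793 to 24388. Both columns thus lay in the range of the stage they take when renamed. Which labels are right was not tested. All results below are given for the labels as deposited, and the changes under the second reading stand beside them as the renamed columns.

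From BBCH63 to BBCH77, 755 genes fell, which is 3.28% of the 22999 genes tested, and 1457 genes rose (6.34%). From BBCH77 to BBCH90, 5270 genes fell (22.9%) and 2529 rose (11%). Calls in either direction made up 9.62% of the genes at the first step and 33.9% at the second. A gene was called when edgeR's quasi-likelihood test gave a Benjamini-Hochberg adjusted p under 0.05 with at least a 2-fold change, and all adjusted p values below come from this test. The calls of the earlier step were mostly rises, those of the later step mostly falls. Changes of at least 8-fold were 259 rises and 46 falls at the first step, and 215 rises and 2107 falls at the second. The median of all genes stood at 0.02 and -0.05 on the log2 scale, which is near 0 by the TMM scaling and says nothing of a shift common to most genes. With 2 libraries a stage, the CPM ranges of both stages were also apart in many genes that were not called. At the first step 33% of all genes were lower and 34.2% higher without overlap, and at the second 43.5% and 40.4%. Both steps use the BBCH77 libraries and are not independent of each other.

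**Figure D1:**
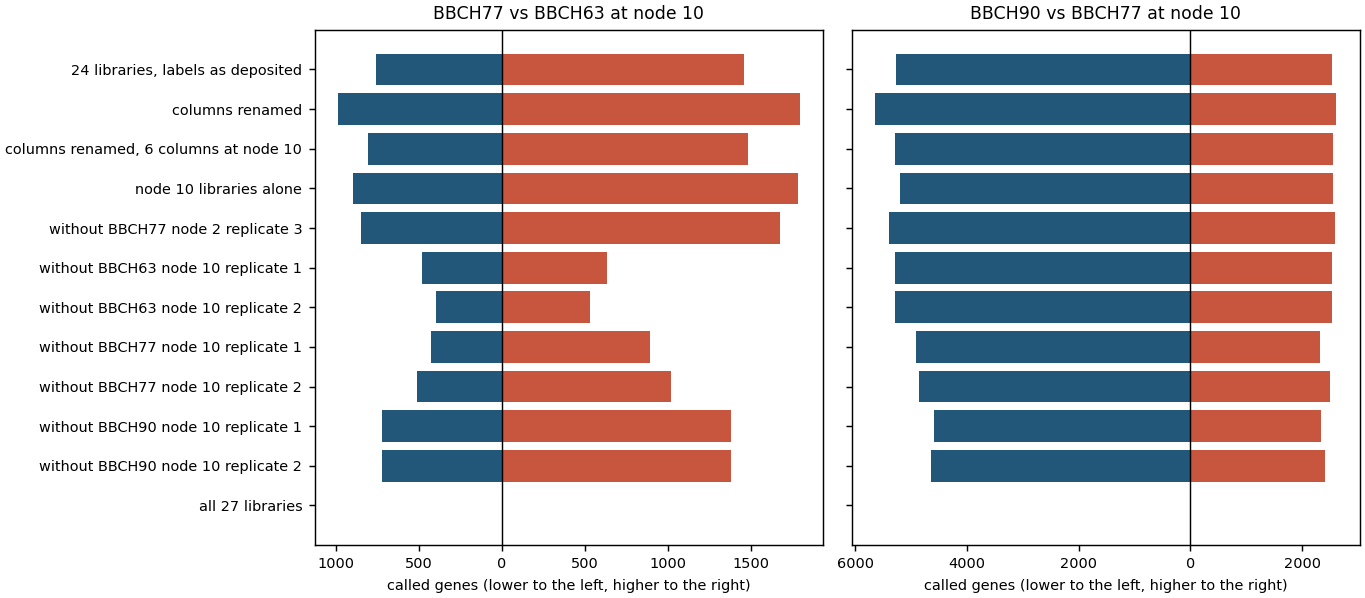
Number of genes called lower (bars to the left) and higher (bars to the right) at each stage step of node 10, for the labels as deposited, for the renamed columns and with libraries left out. Leaving out 1 node 10 library at a time, the second step has 6917 to 7815 calls and the first 931 to 2099, and with all 27 libraries 1 call is left at the first step and 0 at the second.

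The flowering genes formed a list of 7, of which 1 fell at the first step, 2 fell at the second and 0 rose. The share at the second step, 2 of 7, was close to the 22.9% of all genes that fell, and reads as no result about flowering genes. VvFLC, whose Arabidopsis homologue represses flowering, measured 157 and 140 CPM at BBCH63, 73 and 65.5 CPM at BBCH77, and 54.3 and 60.7 CPM at BBCH90. Both BBCH63 libraries stood above all later ones. The gene fell by 1.10 on the log2 scale at the first step (SE 0.17, adjusted p = 0.000429), while the second step gave -0.27 (adjusted p = 0.183). VvTFL1A had 6.34 and 6.2 CPM at BBCH63, 3.04 and 3.5 CPM at BBCH77, and 0.0607 and 0.164 CPM at BBCH90. The stages did not overlap, and the level at BBCH90 rested on a few counts per library. The second step was a fall of log2 -4.80 (SE 0.73, adjusted p = 2.36e-05), whereas the first, at -0.94, missed the threshold (adjusted p = 0.212). VvELF4, a homologue of a component of the circadian clock, stayed at 28.1 to 38.3 CPM until BBCH77 and then fell to 11.1 and 12.4 CPM (log2 -1.29, SE 0.23, adjusted p = 0.000111).

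The other 4 flowering genes were not called at either step. VvCO, a CONSTANS homologue of the photoperiod pathway, had 59.8 and 55.5 CPM at BBCH63, 30.8 and 28 CPM at BBCH77, and 43.7 and 43 CPM at BBCH90. It was lowest at BBCH77 in both libraries, with no overlap between stages, and its first step (log2 -0.97, adjusted p = 0.0106) stayed just under the 2-fold limit. VvCOL1, which is related to CONSTANS as well, had its highest values at BBCH90, 308 and 301 CPM against 199 and 158 CPM at BBCH77, again less than 2-fold apart (log2 0.77, adjusted p = 0.000599). VvSOC1, a floral integrator, went from 113 and 98 CPM to 70 and 78.5 CPM and then to 63.7 and 60.8 CPM. VvVFL was highest at BBCH77, with 7.92 and 8.04 CPM against 4.41 and 5.94 CPM before and 4.76 and 5.64 CPM after, but the steps of 0.62 and -0.62 (SE 0.25 each) did not reach 2-fold. The median of the 7 genes was -0.51 at the first step and -0.27 at the second. With 1 library left out at a time these counts changed only without BBCH63 replicate 2, when VvCO was called as well.

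**Figure D2:**
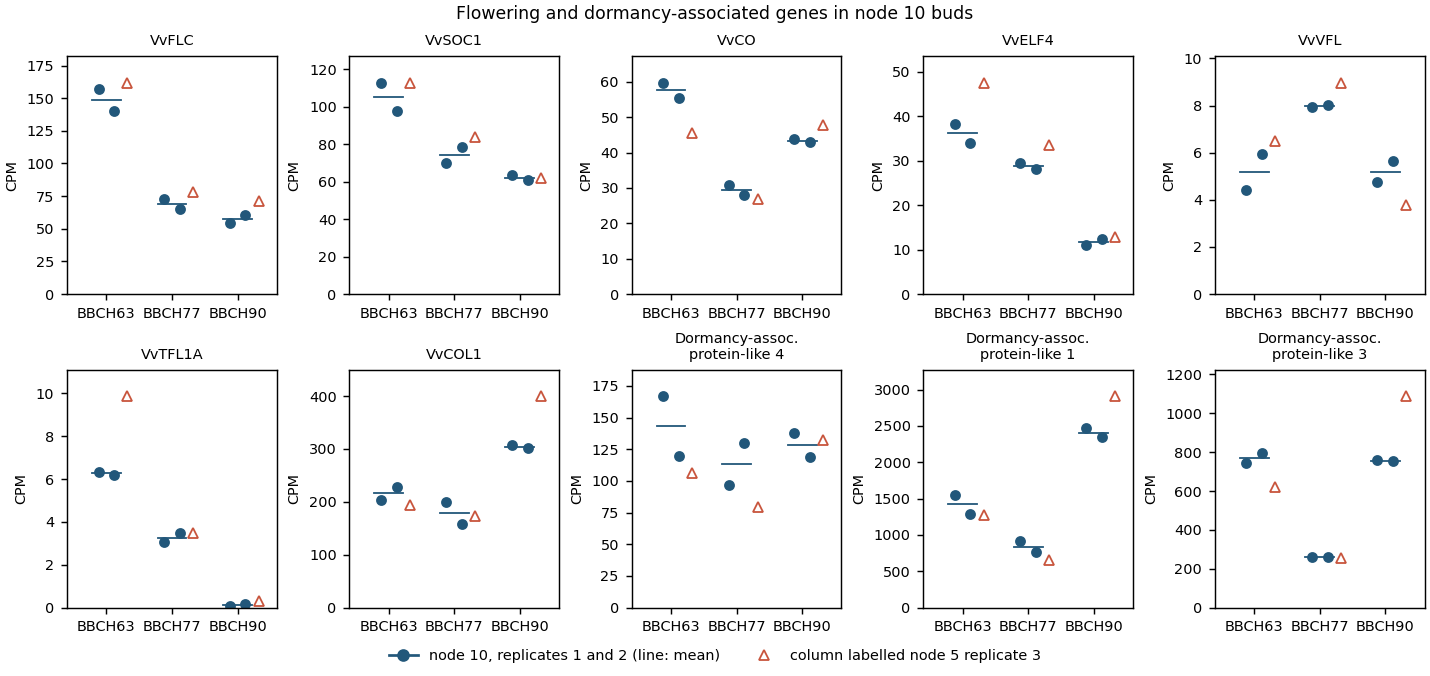
CPM of the 7 flowering and 3 dormancy-associated genes by stage, each panel on its own axis from 0. Filled circles are the node 10 replicates with their mean as a line, and open triangles the column labelled node 5 replicate 3, which becomes node 10 when the columns are renamed. VvFLC drops from 157 and 140 to 73 and 65.5 CPM after BBCH63, VvTFL1A is near 0 at BBCH90, and dormancy-associated protein-like 3 dips at BBCH77.

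Dormancy-associated proteins are small plant proteins whose transcripts are abundant in resting buds. Of the list of 3, 1 fell at the first step, where 3.28% of all genes fell. At the second 2 rose, where 11% of all genes rose. Dormancy-associated protein-like 3 (VITVI14G00142) had 745 and 794 CPM at BBCH63, 262 and 258 CPM at BBCH77, and 760 and 753 CPM at BBCH90. Both BBCH77 libraries stood far below all others, and the BBCH90 level lay within the range of BBCH63. The fall was log2 -1.57 (SE 0.23, adjusted p = 0.000314) and the rise 1.54 (SE 0.23, adjusted p = 2.12e-05). Dormancy-associated protein-like 1 (VITVI10G00485) rose from 913 and 762 CPM to 2468 and 2349 CPM at the second step (log2 1.52, adjusted p = 0.00018), and its first step of -0.76 was not called (adjusted p = 0.064). The like-4 gene (VITVI09G00050) had overlapping libraries at every stage, between 96.5 and 167 CPM.

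The other 4 genes named by the study comprised 1 that rose at the first step and 2 that rose at the second. Of all genes 6.34% and 11% rose at these steps. IAA9 (VITVI11G00497), a member of the Aux/IAA repressors of the auxin response, rose at both steps, from 0.549 and 0.492 CPM to 1.23 and 1.08 CPM and then to 10.1 and 12.7 CPM. The later rise, of log2 3.30 (SE 0.29, adjusted p = 6.65e-08), was the larger one, and the earlier one, of 1.15 (adjusted p = 0.0155), was lost without BBCH63 replicate 1 (adjusted p = 0.0725), BBCH63 replicate 2 (0.112) or BBCH77 replicate 1 (0.0932). The ubiquitin-conjugating enzyme gene VvUBC28 was the reference for the study's qPCR, which covered BBCH63 only. It rose from 108 and 117 CPM at BBCH77 to 249 and 235 CPM at BBCH90 (log2 1.10, SE 0.18, adjusted p = 4.27e-05). ERF020, an ethylene response factor, showed 1.12 to 3.16 CPM with overlapping stages. The ALP1-like gene had 47.8 and 58.5 CPM at BBCH63, 140 and 96.3 CPM at BBCH77 and 77.8 and 69.2 CPM at BBCH90. Its stages did not overlap either, yet the steps of 1.15 and -0.69 came with SEs of 1.17 and 1.16 (adjusted p = 0.528 and 0.632), since the spread is taken from all nodes. Fitted on the node 10 libraries alone, the first step was called (log2 1.16, adjusted p = 0.00811).

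The largest named group was that of genes listed by the study as falling at each stage step at all nodes, 138 in number. These genes were chosen on these libraries, so the counts are a description and not independent evidence of their direction. The same holds for the functional lists cut from them. Of all genes 3.28% fell at the first step and 22.9% at the second. At node 10, 126 of the 138 listed genes fell at the first step, with a median of -1.54. At the second step 138 fell, with a median of -3.99. The 12 that were not called at the first step had changes of 0.99 to 1.76 in size with adjusted p values between 0.0507 and 0.105. Leaving out 1 library lowered the first-step count to 62 without BBCH77 replicate 2, 92 without BBCH77 replicate 1, 67 without BBCH63 replicate 2 and 81 without BBCH63 replicate 1, while the second step kept 134 to 138. At BBCH90, 15 members had no count in either library, and with these set at the bound of 3 counts over the stage the median of the second step was -3.89.

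The list of fatty acid and wax genes, cut from these falling genes, held 11 members. Of these, 9 fell at the first step and 11 at the second. 3-ketoacyl-CoA synthase 5 (VITVI16G00804), an elongase of very-long-chain fatty acids, had 172 and 204 CPM at BBCH63, 72.7 and 47.8 CPM at BBCH77, and 5.58 and 5.42 CPM at BBCH90. Each stage lay wholly below the one before. The steps were log2 -1.64 (SE 0.27, adjusted p = 0.000726) and -3.45 (SE 0.30, adjusted p = 5.1e-08). O-acyltransferase WSD1 (VITVI12G00292), which forms wax esters in Arabidopsis, went from 167 and 161 CPM to 79.6 and 52.3 CPM and then to 3.82 and 4.98 CPM. HOTHEAD (VITVI09G00183), needed for a normal cuticle in Arabidopsis, ended at 9.8 and 11.4 CPM after 296 and 337 CPM at BBCH63. The alkane hydroxylase MAH1 (VITVI07G01843), which oxidizes wax alkanes, had 39.1 and 58.7 CPM at BBCH63, 25.9 and 15.1 CPM at BBCH77 and no count at BBCH90, which makes it at least 474-fold lower there than at BBCH77. Its first step of -1.25 missed the threshold (adjusted p = 0.0526). Reads of the 4 stearoyl-ACP desaturases of the list may be split between near-identical copies, and their values are uncertain for this reason.

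GDSL esterases and lipid transfer proteins are secreted proteins of which several act on cutin and surface lipids. The 10 among the listed falling genes all fell at both steps, where 3.28% and 22.9% of all genes fell. They were chosen for falling in these libraries, so this count describes the list and not the gene family. The GDSL esterase/lipase At5g33370 homologue VITVI04G01007 had 265 and 371 CPM at BBCH63, 109 and 71.4 CPM at BBCH77, and 0.121 and 0.137 CPM at BBCH90. The second step was log2 -9.41 (SE 0.81, adjusted p = 5.1e-08). The APG esterase VITVI09G00264 kept 23.7 and 24.7 CPM at BBCH90 after 525 and 510 CPM at BBCH63. Of the 10 first-step calls 2 were left without BBCH77 replicate 2, 2 without BBCH63 replicate 2 and 6 without BBCH63 replicate 1.

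The cell wall and cytoskeleton lists were also cut from the genes chosen for falling in these libraries, so their counts are a description. Cell wall genes comprised 11 members, of which 10 fell at the first step and 11 at the second. The first-step count was 4 without BBCH77 replicate 2 and 6 without BBCH63 replicate 2. Fasciclin-like arabinogalactan protein 13 (VITVI12G00248), a cell surface glycoprotein, measured 1017 and 919 CPM at BBCH63, 303 and 186 CPM at BBCH77, and 2.34 and 2.33 CPM at BBCH90. Classical arabinogalactan protein 9 (VITVI03G00598) followed with 9.86 and 7.75 CPM at BBCH90 after 426 and 258 CPM at BBCH77 (log2 -5.28, SE 0.37, adjusted p = 6.66e-09). The proline-rich protein 4-like gene (VITVI03G01389) went from 135 and 144 CPM to 40.7 and 27 CPM and had no count at BBCH90, at least 785-fold lower. Of 8 genes of the cytoskeleton and growth, 7 fell at the first step, 4 when any 1 BBCH63 or BBCH77 library was left out, and 8 at the second, among them tubulin beta-1 chain (VITVI18G01120), with 162 and 185 CPM, then 60.4 and 64.5 CPM, then 14.5 and 15.3 CPM. The actin-depolymerizing factor 5 (VITVI03G00129) reached 0.182 and 0.11 CPM at BBCH90.

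**Figure D3:**
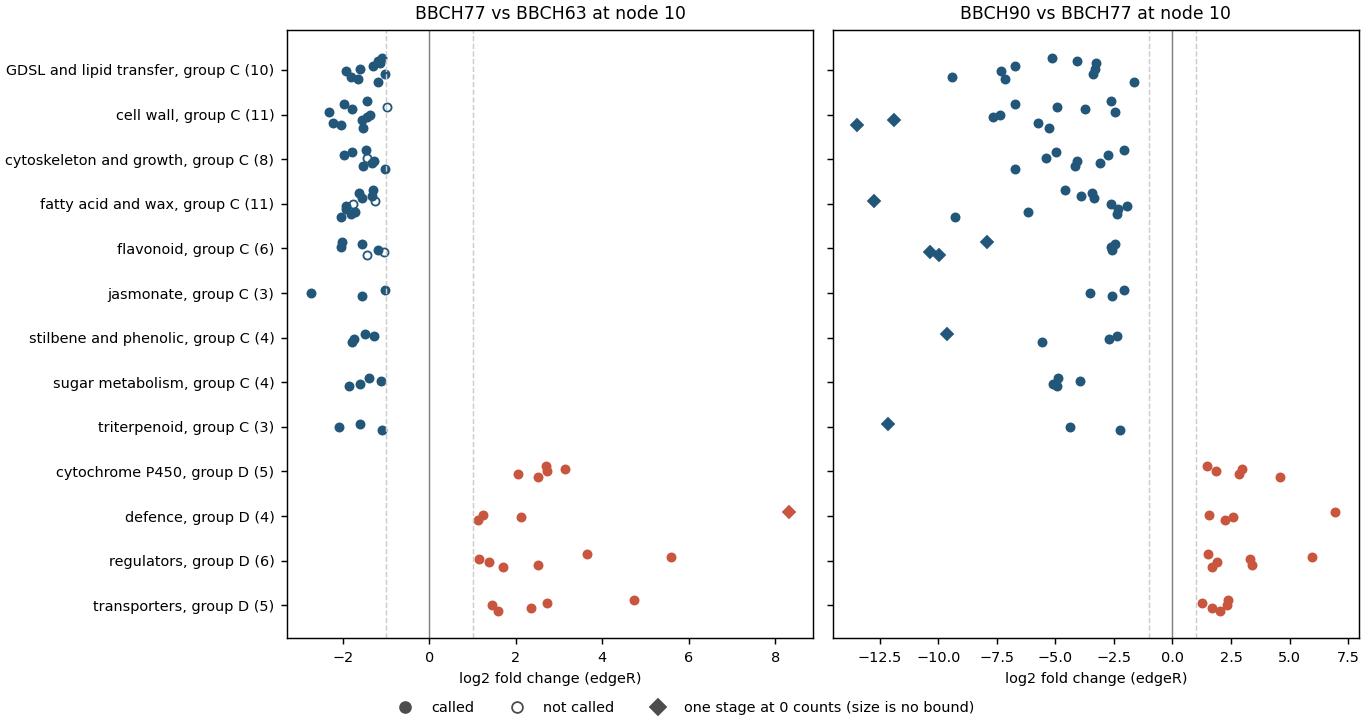
Log2 fold change of each member of 13 functional lists at the 2 steps of node 10, filled where called and open where not, with the number of members in brackets and dashed lines at 2-fold. Members of the lists of falling genes (group C) lie between -2.74 and -0.99 at the first step and at or below -1.66 at the second, and those of the rising lists (group D) between 1.12 and 8.32 and between 1.27 and 6.94. Diamonds mark genes with no count at one of the stages, whose fitted size is no bound.

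Of 6 flavonoid genes 4 fell at the first step, 2 without BBCH63 replicate 2, and 6 at the second. This list and that of stilbene and phenolic genes were cut from the genes chosen for falling in these libraries, so their counts are a description. Leucoanthocyanidin reductase 1 (VITVI01G00234), an enzyme of proanthocyanidin synthesis, had 211 and 277 CPM at BBCH63, 100 and 114 CPM at BBCH77 and 14.1 and 21.8 CPM at BBCH90. The anthocyanin O-methyltransferase VvAOMT fell in both steps, by log2 -2.04 and -2.63. The 3 chalcone synthase genes, which make the first flavonoid precursor and share most of their sequence, had no count at BBCH90, and values for each copy are uncertain. For the copy VITVI00G04601 the level at BBCH77, 4.42 and 3.25 CPM, was at least 88.8-fold above that at BBCH90. The 4 stilbene and phenolic genes all fell at both steps, though 2 were called at the first without BBCH63 replicate 1, BBCH63 replicate 2 or BBCH77 replicate 2. One of them was stilbene synthase 3 (VITVI16G00752) with 6.36 and 6.84 CPM, 2.98 and 1.75 CPM and then no count. A probable cinnamyl alcohol dehydrogenase (VITVI03G00561) ended at 0.152 and 0.0821 CPM, and a cinnamate glucosyltransferase-like gene (VITVI03G00568) at 6.98 and 7.39 CPM.

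The jasmonate, triterpenoid and sugar lists were cut from the genes chosen for falling in these libraries. Their counts are a description and say nothing of these pathways as a whole. Of all genes 3.28% fell at the first step and 22.9% at the second. The 3 jasmonate genes fell at both steps. Of these, 1 was called at the first step without BBCH63 replicate 1, BBCH63 replicate 2 or BBCH77 replicate 2. The list has JAR1 (VITVI12G00480), which conjugates jasmonate with isoleucine, at 14.7 and 16.3 CPM, 8.6 and 6.54 CPM, and 1.76 and 1.83 CPM. Allene oxide synthase 3 (VITVI03G00391), which acts earlier in the synthesis of the hormone, ended at 0.182 and 0.192 CPM. The 3 triterpenoid genes fell at both steps too, with 1 call at the first step without BBCH63 replicate 1 or BBCH77 replicate 2. Beta-amyrin synthase 1 (VITVI09G02008) kept 5.89 and 6.54 CPM at BBCH90, whereas the 28-monooxygenase-like gene that acts on beta-amyrin (VITVI18G02126) had 15.8 and 11.4 CPM at BBCH77 and no count at BBCH90, at least 315-fold lower. All 4 genes of sugar metabolism fell at both steps, and 2 at the first step when any 1 BBCH63 or BBCH77 library was left out. Sucrose-phosphate synthase 1 (VITVI04G00508), an enzyme of sucrose synthesis, had 20.7 and 23.9 CPM, then 6.85 and 5.47 CPM, then 0.152 and 0.246 CPM. The soluble invertase VITVI16G00713, which splits sucrose, stood at 1.61 and 2.63 CPM at BBCH90 after 63.7 and 81.5 CPM at BBCH63.

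Genes that the study lists as rising at each step at all nodes numbered 32, and they too were chosen on these libraries. Of all genes 6.34% rose at the first step and 11% at the second. At node 10, 28 of the 32 listed genes rose at the first step (median 1.85) and 31 at the second (median 2.23). At the first step 17 were called without BBCH77 replicate 2, 23 without BBCH77 replicate 1 and 14 without either BBCH63 library, and at the second 28 to 31 with 1 library left out. The 6 regulators all rose at both steps, with 3 calls at the first without BBCH63 replicate 2 and 4 without BBCH63 replicate 1. TIFY 10A (VITVI12G02718), a JAZ-type repressor of jasmonate responses, had 0.198 and 0.0428 CPM at BBCH63, 4.22 and 7.54 CPM at BBCH77, and 370 and 365 CPM at BBCH90. Each stage stood well above the one before, with steps of log2 5.59 (SE 0.67, adjusted p = 7.04e-05) and 5.97 (SE 0.53, adjusted p = 6.67e-08). Myb4 (VITVI14G04262), whose Arabidopsis homologue represses phenylpropanoid genes, went from 2.04 and 2.63 CPM to 29.7 and 28.9 CPM and then to 82.3 and 84.8 CPM. Heat stress transcription factor C-1 (VITVI11G00339) rose from 38 and 24.6 CPM to 86.3 and 77 CPM and then to 323 and 288 CPM.

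The lists of defence, transporter and cytochrome P450 genes were cut from the genes chosen for rising in these libraries. Their counts are therefore a description and no result about these families. Of all genes 6.34% rose at the first step and 11% at the second. All 4 defence genes rose at both steps. The acidic endochitinase VITVI16G01978, which cleaves chitin of fungal walls, had no count at BBCH63, 0.597 and 1.29 CPM at BBCH77, at least 29-fold higher, and 156 and 76.4 CPM at BBCH90. The defensin Ec-AMP-D2 homologue (VITVI01G01476), an antimicrobial peptide, had 117 and 141 CPM, then 281 in both libraries, then 1428 and 1262 CPM. An osmotin-like protein (VITVI06G00440) followed with 112 and 118 CPM, 286 and 252 CPM, and 783 and 791 CPM. At the first step edgeR called 0 of the 4 without BBCH77 replicate 2 or without either BBCH63 library, and 1 without BBCH77 replicate 1. Without BBCH77 replicate 2 the first step was log2 1.12 for the defensin and 1.32 for the osmotin-like gene. All 5 transporters and all 5 cytochrome P450 genes rose at both steps. Of the transporters 3 were called at the first step without BBCH63 replicate 1, BBCH63 replicate 2 or BBCH77 replicate 2, and 3 P450 genes without BBCH63 replicate 2 or BBCH77 replicate 2. SWEET16 (VITVI14G00149), a sugar transporter of the vacuole in Arabidopsis, had 3.12 and 2.42 CPM at BBCH63, 3.31 and 11.8 CPM at BBCH77 and 40.7 and 34.2 CPM at BBCH90. Replicate 1 at BBCH77 was close to BBCH63, and without replicate 2 the first step was 0.26 (adjusted p = 0.695) in place of 1.45. The call was also lost without BBCH63 replicate 1 (adjusted p = 0.0858) or BBCH63 replicate 2 (adjusted p = 0.169). Cation/H+ antiporter 20 (VITVI08G01172) showed no such gap, with 16.9 and 14.6 CPM at BBCH77 after 2.9 and 3.27 CPM. Cytochrome P450 78A4 (VITVI01G01644) had 1.91 and 6.43 CPM at BBCH77 and 118 and 82.7 CPM at BBCH90. The P450 82C4 genes VITVI03G00413 and VITVI03G04145 carry the same name and may share reads, so their separate values are uncertain.

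Of 62 named genes with values in the text, 44 were called at the first step, and some of these lost the call without at least 1 of the node 10 libraries. They were IAA9, leucoanthocyanidin reductase 1, stilbene synthase 3, both GDSL esterases, JAR1, allene oxide synthase 3, beta-amyrin synthase 1, fasciclin-like arabinogalactan protein 13, proline-rich protein 4-like, actin-depolymerizing factor 5, the soluble invertase, SWEET16, the defensin, the osmotin-like gene, the endochitinase, P450 78A4 and 3 genes without a name. VvFLC, dormancy-associated protein-like 3, the 3-ketoacyl-CoA synthase, WSD1, HOTHEAD and TIFY 10A were not among them. Genes named by the rule but without values in the text were not counted, and of those VITVI05G01752 and VITVI06G00266 lost the call too. At the second step 2 of 51 calls were lost, those of Myb4 and VITVI05G04535.

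The study also lists 6 genes lower and 1 gene higher at node 5 than at node 2 at every stage. Both lists were chosen on these libraries. At node 10, 0 of these 7 were called at the first step, where 9.62% of all genes were called. At the second, 4 of the 6 and the single gene of the other list fell, where 22.9% of all genes fell. The 6 genes had 0 calls at the second step by edgeR without BBCH77 replicate 1 or without BBCH90 replicate 2, and 2 without BBCH90 replicate 1.

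The genes with the largest changes carry identifiers that the table does not pair with names. Those with the largest rises at the first step were uneven between the replicates. VITVI02G01438 had no count at BBCH63, 14.5 CPM in BBCH77 replicate 1 and 689 CPM in replicate 2, and 0.152 and 0.0274 CPM at BBCH90. VITVI11G00948 had no count at BBCH63, 12.1 and 484 CPM at BBCH77, and 0.152 and 0 CPM at BBCH90. Both were thus found almost exclusively at BBCH77, and in both the replicates differed more than 8-fold. The same gap occurred in all 5 of the largest rises of this step. They were also high in the BBCH77 libraries of the other nodes, for VITVI11G00948 at 431, 427 and 141 CPM at node 2 and 12, 248 and 3.59 CPM at node 5, so that replicates of node 5 were apart as well. VITVI02G01438 was still called without replicate 2 (adjusted p = 0.00628). The call of VITVI11G00948 was lost without BBCH63 replicate 1 (adjusted p = 0.0556) or BBCH63 replicate 2 (adjusted p = 0.0601).

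Over 12730 genes with a mean of at least 10 CPM in the node 10 libraries, 168 differed by at least 2-fold between the BBCH77 replicates, against 40 at BBCH63 and 41 at BBCH90. Of these 168 genes 108 were higher in replicate 2, and 55 were called at the first step. At least an 8-fold gap was seen in 12 genes at BBCH77, all higher in replicate 2, and in 0 and 2 at the other stages. The pseudocount was 0.5 CPM. Of the 2212 genes called at the first step, 1265 were called in the same direction without BBCH77 replicate 2 and 1180 without replicate 1. What sets the replicates apart was not tested.

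**Figure D4:**
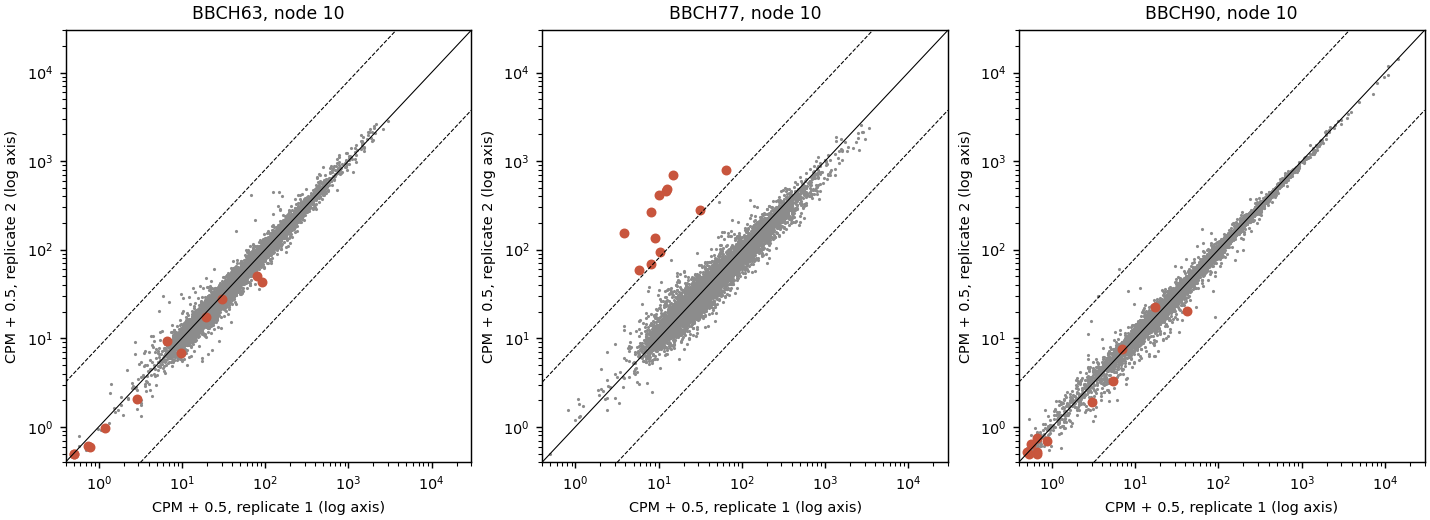
CPM plus 0.5 of the node 10 replicates at each stage for 12730 genes, replicate 1 on the x axis and replicate 2 on the y axis, both logarithmic, with a solid line at equality and dashed lines at 8-fold. Points in red are the 12 genes with at least an 8-fold gap at BBCH77, which lie near the line at the other stages.

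Falls of the first step were smaller. VITVI05G04535 had 11 and 18 CPM at BBCH63, 0.555 and 0.125 CPM at BBCH77 and no count at BBCH90 (first step log2 -5.40, SE 0.98, adjusted p = 0.00197). VITVI07G00457 fell from 68.1 and 90.4 CPM to 7.92 and 5.06 CPM (log2 -3.61, SE 0.55, adjusted p = 0.000379) and then rose to 386 and 346 CPM (log2 5.82, SE 0.61, adjusted p = 3.51e-07). The stages of both genes did not overlap. At the second step VITVI05G01933 rose from 17.9 and 27 CPM to 9882 and 8983 CPM (log2 8.71, SE 0.55, adjusted p = 2.57e-09). VITVI05G02156 had no count in the 4 libraries of the earlier stages and 31.8 and 35.2 CPM at BBCH90, at least 1080-fold higher than at BBCH77. These replicates stood close together. Among the falls, VITVI00G04708 had 0.878 and 0.77 CPM at BBCH63, 21.7 and 19.5 CPM at BBCH77 and no count at BBCH90, at least 477-fold lower. VITVI03G01390 had 83.7 and 83.5 CPM, then 31.4 and 18.5 CPM, and no count at BBCH90, at least 577-fold lower.

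Whether the steps of node 10 differ from those of the other nodes was asked with interaction contrasts in the same fit. Against node 5, 0 genes (0%) were called at either step, with 1364 and 1393 genes at an unadjusted p under 0.05, and DESeq2 called 5 and 7. The same step at node 5 gave 1981 and 7480 calls. Shared calls in the same direction numbered 1160 at the first step, 52.4% of the node 10 calls and 58.6% of those of node 5, and 6279 at the second, 80.5% and 83.9%. With node 2 the shared calls were 868 (39.2% and 42.6%) and 5891 (75.5% and 74.4%). Against node 2, edgeR called 4 genes (0.0174%) at the first step, 3 with a higher step (0.013%) and 1 with a lower one (0.00435%) at node 10, and 0 (0%) at the second, with 2833 and 3695 genes at an unadjusted p under 0.05, and DESeq2 called 263 and 410. These counts rested on the library labelled BBCH77 node 2 replicate 3, which lay near node 10 replicate 1. Its distances to BBCH77 node 2 replicates 1 and 2 were 1.01 and 0.819, and when renamed it counts as node 5. Without it edgeR called 778 and 1758 genes against node 2 and 0 against node 5 at both steps. Node 10's own steps then had 2524 and 7964 calls.

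Of the 4 genes, VITVI09G01493 had 6.96 and 4.94 CPM at BBCH63 and 66.2 and 97.1 CPM at BBCH77 at node 10, while node 2 had 79.7 to 121 CPM at BBCH63 and 121 to 161 CPM at BBCH77. Node 10 and node 2 differed by a log2 step of 3.35 (SE 0.43, adjusted p = 0.00694). Buds of node 5 rose as those of node 10 did, from 4.83 to 11 CPM to 103 to 122 CPM. None of the flowering and dormancy-associated genes had an interaction under the threshold in edgeR. VvFLC, for example, gave -0.12 against node 5 (adjusted p = 0.97) and -0.46 against node 2 (adjusted p = 0.402) at the first step. In this fit only 0.0174% of all genes were called against node 2 at the first step, and 0% against node 5. A missing call therefore does not show that these genes step alike at all nodes. Without BBCH77 node 2 replicate 3, the fit called 778 and 1758 genes against node 2.

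With the columns renamed, node 10 had 3 columns per stage and 23040 genes were tested over 26 columns. At the first step 985 genes fell (4.28%) and 1795 rose (7.79%), and at the second 5648 fell (24.5%) and 2613 rose (11.3%), in all 12.1% and 35.9% of the genes. Of the calls under the deposited labels, 1925 were called again in the same direction at the first step, or 87% of these and 69.2% of the renamed calls, and 7377 at the second, or 94.6% and 89.3%. With node 10 held to its 6 columns the renamed fit gave 804 and 1484 calls, and 5284 and 2550, close to the deposited labels. The steps of node 10 thus gained calls mainly with the added columns.

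Against node 2 the change was larger, with 585 genes called at the first step and 1480 at the second, and still 375 and 930 with node 10 held to 6 columns. Of the 4 genes under the deposited labels 3 were called again in the same direction. VITVI04G01321 had a difference of 0.94 (adjusted p = 0.00444) and thus less than 2-fold. Against node 5 the renamed columns gave 0 genes at both steps in edgeR, with 899 and 1341 genes at an unadjusted p under 0.05, and 3 genes at the first step with 6 columns at node 10.

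Among the named genes renaming altered few calls. VvTFL1A had 9.88 CPM in the added BBCH63 column and was then called at the first step as well (log2 -1.16, adjusted p = 0.0173). Of the 138 listed falling genes 138 were called at the first step, and of the 32 rising genes 32 at both steps. VvFLC, with 162, 78.1 and 71.6 CPM in the added columns, gave -1.08 and -0.21. TIFY 10A had 0.123, 3.71 and 392 CPM there and gave 5.38 and 6.19. Dormancy-associated protein-like 3 (VITVI14G00142) had 623, 256 and 1089 CPM and gave -1.48 and 1.75. Of the 15 members of the falling list with none, 11 had a count in the added column and the highest was 27, for the proline-rich protein 4-like gene. MAH1 had 8 counts there. In BBCH90 node 5 replicates 1 and 2 together 7 of the 15 had a count.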

How the data were processed

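The authors trimmed the reads, aligned them with PN40024.v4 as the reference genome, and deposited counts of reads per gene for 27 libraries (FastQC, HISAT2 and HTSeq in the submitters' processing notes, no versions given). The counts are whole numbers and were not normalized. The labels name the Spectrum Plant Total RNA Kit and a stranded TruSeq mRNA library, while the paper names another extraction kit. All 27 columns matched a sample by title.

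Counts were fitted in edgeR 4.0.16 (R 4.3.3) with 1 mean per stage and node over 24 libraries. Replicate 3 of node 10 was left out at each stage. The low-count filter of edgeR, filterByExpr, was set to 10 counts, and TMM scaling, the quasi-likelihood test and Benjamini-Hochberg adjustment over all genes were used. A call needed an adjusted p under 0.05 and a 2-fold change. CPM values are TMM-scaled. The size of each log2 change over the root of its F statistic gave the standard error. A prior count of 4 entered the log2 CPM of the distances. Totals of 34531620 to 53307172 counts limit the precision, and 3 counts over a stage were the floor for genes at 0, covering counting error only. The scripts were tested on simulated counts, at an adjusted p under 0.05 without the fold limit. With 2 against 2 libraries edgeR recovered 46 of 100 true 2-fold changes and 87 of 100 true 4-fold changes, with 3 false calls. DESeq2 recovered 54 and 93, with 33 false calls. A true change near 2-fold can thus go uncalled. Figures used matplotlib 3.10.9.

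Genes were named by a rule: those the paper names by identifier, up to 4 per functional list by mean CPM, the 5 largest rises and falls per step among called genes of at least 10 CPM, and those behind interaction counts of 5 or fewer. The text gives values for part of them. Names come from the paper. The lists and members were chosen with earlier results of these data known. Lists of product names were not used here, since no product table was given that matches the identifiers, and for the same reason markers of other tissues were not analysed here. Alternatives were DESeq2 1.42.0, edgeR scaled by DESeq2 size factors, a fit without the low-count filter, a fit of all 27 libraries, a block for the replicate number, the 6 node 10 libraries alone, a limit of 0.01, each node 10 library left out, and the columns renamed with 9 or 6 columns at node 10. The fits without BBCH77 node 2 replicate 3 and without the renamed BBCH90 column were added after seeing the data. The replicate numbers were checked for pairing by the correlation of deviations of replicate 1 between stages, which was -0.151 to 0.0554. This check cannot exclude a pairing, since the replicate labels themselves may be shifted. The common dispersion was 0.0483 in the main fit and 0.0407 with the replicate block. It was 0.0361 without BBCH77 node 2 replicate 3 and 0.0211 in the 6 node 10 libraries alone. The spread behind the node 10 tests thus includes that of other nodes and of this library.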

Additional observations from a re-analysis of the deposited data

Results flagged for a closer look

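The interaction of node with the first stage step was called for 4 genes by edgeR, each marked because the step of node 10 differed from that of node 2 in the test of the difference itself. VITVI09G01493 had a difference of 3.35, with both node 10 libraries rising about as those of node 5 did and node 2 high at both stages. For VITVI05G00039 the difference was 1.64 (SE 0.23, adjusted p = 0.0145), with 3.78 and 3.27 CPM at BBCH63 and 7.16 and 6.77 CPM at BBCH77 at node 10, against 7.41 to 10.9 and 5.25 to 6.35 CPM at node 2. For VITVI04G01321 it was 1.02 (SE 0.16, adjusted p = 0.037), from a step of 0.48 at node 10 and -0.54 at node 2. VITVI12G02758 had a difference of -2.26 (SE 0.35, adjusted p = 0.037), since it went from 28.1 and 26.3 CPM to 4.73 and 3.98 CPM at node 10 and from 5.67 to 6.89 CPM to 3.82 to 5.89 CPM at node 2. With node 10 libraries left out in turn, 0 to 2 of such calls were left. Names of these 4 identifiers are not paired with them in the table, and no cause was tested.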

How the results depend on the processing

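The numbers of falls and rises at the second step stayed within 1.5 times under DESeq2, its size factors, no low-count filter, the 6 libraries alone, the limit of 0.01 and the renamed columns, and with each node 10 library left out (falls 4590 to 5288, rises 2313 to 2527). Without 1 BBCH77 or BBCH90 library, 85.2% to 87% of the second-step calls were made again in the same direction. The first step was less stable. Leaving out each node 10 library gave 398 to 718 falls and 533 to 1381 rises, the lowest without BBCH63 replicate 2, and the limit of 0.01 gave 418 and 715. All 27 libraries, with a BBCH90 library equal to a BBCH63 one among them, left 0 falls and 1 rise at the first step, and 0 and 0 at the second. The replicate number as a block gave 792 falls and 1527 rises, then 5334 and 2558, and 10 genes at the first step against node 2. Without BBCH77 node 2 replicate 3 the first step had 847 falls and 1677 rises. The block changed no other count of calls by over 1.5 times. Of the named genes, MAH1 was called at the first step with the block (log2 -1.20, adjusted p = 0.0324 by edgeR).

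Against node 5, DESeq2 called 5 and 7 genes, the renamed columns with 6 at node 10 called 3 at the first step, and without the renamed BBCH90 column 1. Against node 2 at the first step the counts were 263 by DESeq2, 0 with all 27 libraries, 585 with the columns renamed, 375 with 6 of these at node 10, 575 without the renamed BBCH90 column, 1 at the limit of 0.01, 0 to 2 with each node 10 library left out, and 778 without BBCH77 node 2 replicate 3. At the second step they were 410, 0, 1480, 930, 1203, 0, 0 and 1758 in this order. The distance between node 10 replicates was 0.437, 0.566 and 0.52 by stage with a prior count of 1, and 0.517, 0.87 and 0.655 over the 3000 most variable genes, where the node 5 replicate 3 columns were nearer to node 10 by 0.107, -0.0475 and 0.223.

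With all 27 libraries many signs turned, none of them with a call. That fit counts as BBCH90 node 10 a library equal to BBCH63 node 2 replicate 2 at all 35134 genes. Its BBCH77 node 10 replicate 3 lay at a mean distance of 1.49 from the kept node 10 libraries. Its values therefore do not measure how stable the steps of node 10 are. At the second step the values were then 0.25 for VvFLC and VvTFL1A, -0.26 for dormancy-associated protein-like 4, 0.03 for VITVI03G00568, VITVI03G00561 and VITVI16G00804, 0.04 for VITVI03G00129, 0.06 for VITVI18G02126, 0.07 for VITVI18G01120, 0.10 for VITVI04G01321, 0.11 for VITVI09G00264, 0.12 for VvAOMT, 0.15 for WSD1, 0.20 for HOTHEAD, 0.23 for MAH1 and VITVI03G00391, 0.31 for VITVI03G00598, 0.57 for VITVI04G01007 and VITVI16G00713, 0.67 for VITVI04G00508, 0.83 for VITVI12G00248, 0.88 for VITVI03G01390, 1.01 for VITVI03G01389 and 1.14 for VITVI05G04535. At the first step they were -0.18 for VvVFL, 0.20 for VvCOL1, -0.38 for VITVI11G00948, 0.83 for VITVI07G00457 and 6 for VITVI05G01933. The uncalled dormancy-associated protein-like 4 had -0.01 to 0.41 at the second step with 1 library left out. ERF020, uncalled throughout, had -0.09 to 0.78 at the first step and -0.66 to 0.83, at the second with 1 library left out, and -0.23 at the second with the columns renamed. The cause of the changes in dormancy-associated protein-like 4 and ERF020 with 1 library left out was not tested. With 2 libraries per stage, replicate number limits what can be called.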
